A study of Mus musculus with 3 samples.

Results

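The genes described here are those of MHC class I antigen presentation, 10 symbols looked up in the feature list: B2m, H2-K1, H2-D1, Tap1, Tap2, Tapbp, Psmb8, Psmb9, Psmb10 and Nlrc5. All 10 were among the 28001 features, and the rule takes genes by symbol, not by a measured value. They were read in single cells of the mouse nucleus accumbens, a ventral striatal region, in 3 samples of 1 group. The mice carried Thy1::ChR2, a transgene that puts the light-gated channel channelrhodopsin into neurons under the Thy1 promoter. All samples had FLiCRE labelling during stimulation of ChR2 by light in this region, and the tissue was a 400 um coronal dissection. FLiCRE marks neurons that are active while light is on: when calcium and light coincide, a transcription factor is cut loose from the membrane and turns on a reporter. The RNAs of its TEV protease and tTA parts, and of mCherry, are features of the same matrix. No unstimulated or unlabelled group was analysed here, so every comparison was made between cells of the same library. The ages and sexes of the mice, and whether a sample was 1 animal or a pool, are not given in the sources used here. A p-value here therefore speaks only of the spread between these libraries, which the tests estimate in part from all genes together.

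MHC class I molecules show peptides from inside the cell to CD8+ T cells. A heavy chain (H2-K1 and H2-D1 in this list) pairs with the light chain beta-2 microglobulin (B2m). Peptides are cut by the proteasome, in which the inducible subunits Psmb8, Psmb9 and Psmb10 can take the place of the constitutive Psmb5, Psmb6 and Psmb7. Tap1 and Tap2 together pump the peptides into the endoplasmic reticulum, and tapasin (Tapbp) holds the empty class I molecule at this pump. Nlrc5 is a transactivator of class I genes. Interferons raise most genes of this pathway, and neurons are known for low class I levels at rest.

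In the mm10 assembly (GRCm38, GENCODE annotation), 7 of the 10 genes lie on chromosome 17. Psmb9 (chr17:34181987-34187764, minus strand), Tap1 (chr17:34187553-34197225), Psmb8 (chr17:34197721-34201454) and Tap2 (chr17:34203527-34216321), 4 genes in all, sit within 34.335 kb. H2-K1 (chr17:33996017-34000347, minus strand) and Tapbp (chr17:33915899-33929292) lie to one side of them and H2-D1 (chr17:35262730-35267499) to the other. B2m is on chromosome 2 (chr2:122147686-122153083), and Psmb10 (chr8:105935735-105938444, minus strand) and Nlrc5 (chr8:94434356-94527272) are on chromosome 8. Psmb9 and Tap1 run away from each other on opposite strands and share 212 bases at their starts, so reads there cannot be assigned to either unless strand is used in counting, which the sources used here do not state. H2-K1 and H2-D1 are paralogs. Of the 451 stretches of 50 bases in the last 500 bases of each transcript, 2 of H2-K1 also occur in H2-D1, while 43 of H2-D1 occur in other genes, 80 in all. The level of either heavy chain is uncertain to that extent.

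The 250 bases before the RefSeq start (GRCm38.p6) are shown for both heavy chains, for the light chain and for Psmb8, because the results turn most on these 4 genes. H2-K1 has more than 1 RefSeq start, and the window of the outermost is shown. Each is written 5′ to 3′ on the strand of the gene: B2m from chr2:122147437-122147686 (plus), H2-K1 from chr17:34000348-34000597 (minus), H2-D1 from chr17:35262844-35263093 (plus) and Psmb8 from chr17:34197945-34198194 (plus). Capitals mark matches to the motifs named after the sequences.
B2m: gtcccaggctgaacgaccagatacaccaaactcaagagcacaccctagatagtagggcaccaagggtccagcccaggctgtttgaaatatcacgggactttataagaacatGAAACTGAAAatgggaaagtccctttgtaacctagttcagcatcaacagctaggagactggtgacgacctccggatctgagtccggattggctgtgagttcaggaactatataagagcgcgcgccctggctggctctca
H2-K1: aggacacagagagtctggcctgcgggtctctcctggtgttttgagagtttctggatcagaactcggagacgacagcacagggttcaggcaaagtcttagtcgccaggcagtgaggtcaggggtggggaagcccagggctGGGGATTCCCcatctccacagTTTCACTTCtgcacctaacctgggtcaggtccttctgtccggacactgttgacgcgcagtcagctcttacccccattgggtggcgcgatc
H2-D1: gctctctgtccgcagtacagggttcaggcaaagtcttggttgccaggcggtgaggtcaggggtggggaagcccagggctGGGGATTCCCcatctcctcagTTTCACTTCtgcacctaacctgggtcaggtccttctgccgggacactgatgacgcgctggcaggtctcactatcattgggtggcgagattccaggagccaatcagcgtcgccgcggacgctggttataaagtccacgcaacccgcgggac
Psmb8: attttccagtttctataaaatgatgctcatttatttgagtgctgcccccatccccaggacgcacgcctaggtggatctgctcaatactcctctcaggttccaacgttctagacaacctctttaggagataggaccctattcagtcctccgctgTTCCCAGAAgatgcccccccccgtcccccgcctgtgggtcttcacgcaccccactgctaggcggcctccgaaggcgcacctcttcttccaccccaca

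A RefSeq window was at hand for 8 of the 10 genes; Tap2 and Nlrc5 had none in the table. Motifs were searched on both strands. The interferon-stimulated response element, whose match is in capitals, occurred in the window of B2m 139 bases before the start and in 2.98% of all 32851 windows of this length. The shorter GAANNGAAA, a motif of interferon regulatory factors, is in capitals on the opposite strand in H2-K1 and H2-D1, 6.31% of all windows held it, and no member's window held both forms. Both of these windows also held a kappa B motif, the first capitals in each, found in 28 windows in all (0.0852%). The capitals in Psmb8 mark TTCNNNGAA, the gamma-activated sequence, which 7.02% of windows held. Of the other 2 motifs searched, TGACG was in 5 of the 8 members' windows (17.8% of all windows) and ATTGG in 6 (33.8%). The windows of H2-K1 and H2-D1 were identical at 91.6% of aligned bases, and those of Psmb9 and Tap1 share 225 bases, so these pairs are not independent. A match describes letters and not a bound site, and no match speaks only of this window.

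Cells were assigned to classes by marker genes, none of which is a member. A neuron had UMIs of at least 3 of 6 neuron markers and fewer than 2 markers of every other class. A cell of another class had at least 2 of its own markers, no second non-neuronal class with 2 or more, and fewer than 5 neuron markers. A UMI is a tag that counts each captured RNA molecule once. After cells with under 300 genes or over 20% mitochondrial UMIs were dropped, 10291 of 11625 cells remained, 2350, 6079 and 1862 in libraries 1 to 3, with medians of 992.5, 2123 and 2705 UMIs. Of these, 4669 were neurons, 1247 oligodendrocytes, 868 astrocytes, 451 endothelial cells, 315 mural cells, 303 MHC class II macrophages, 245 microglia, 130 oligodendrocyte precursors, 88 T cells and 34 fibroblasts. Fibroblasts were used in 2 libraries only, since library 3 held 3 of them. A further 1019 cells carried markers of more than 1 class and 922 reached no gate, and both were left out. All class markers found as features were highest in their own class except Gjb6, which was higher in fibroblasts (288 CPM) than in astrocytes (195 CPM). Libraries 1 and 2 shared 13 cell barcodes, 1 and 3 shared 7, and 2 and 3 shared 22.

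The light chain B2m was lowest in neurons and highest in microglia, macrophages, T cells and endothelial cells, in every library. Values are CPM, the UMIs of a gene scaled to a fixed total of the UMIs summed over a class in a library, given for libraries 1 to 3. In neurons B2m stood at 96.7, 263 and 148 CPM. In astrocytes it was at 636, 948 and 1063 CPM, and in oligodendrocytes at 954, 1690 and 2609 CPM. Microglia had 7168, 4478 and 6251 CPM, which was 74.1, 17 and 42.2 times the level of the neurons of the same library. The neuron range (up to 263 CPM) did not overlap that of any other class (592 CPM or more), and a further gap lay between oligodendrocytes (up to 2609 CPM) and endothelial cells (3046 CPM or more). MHC class II macrophages (4875 to 5970 CPM), T cells (4548 to 5582 CPM) and endothelial cells (3046 to 6317 CPM) could not be separated from microglia by their ranges. Next came oligodendrocytes, fibroblasts (1632 and 1772 CPM), mural cells (1278 to 2068 CPM), oligodendrocyte precursors (592 to 2042 CPM) and astrocytes, each overlapping its neighbour in the order of means.

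**Figure D1:**
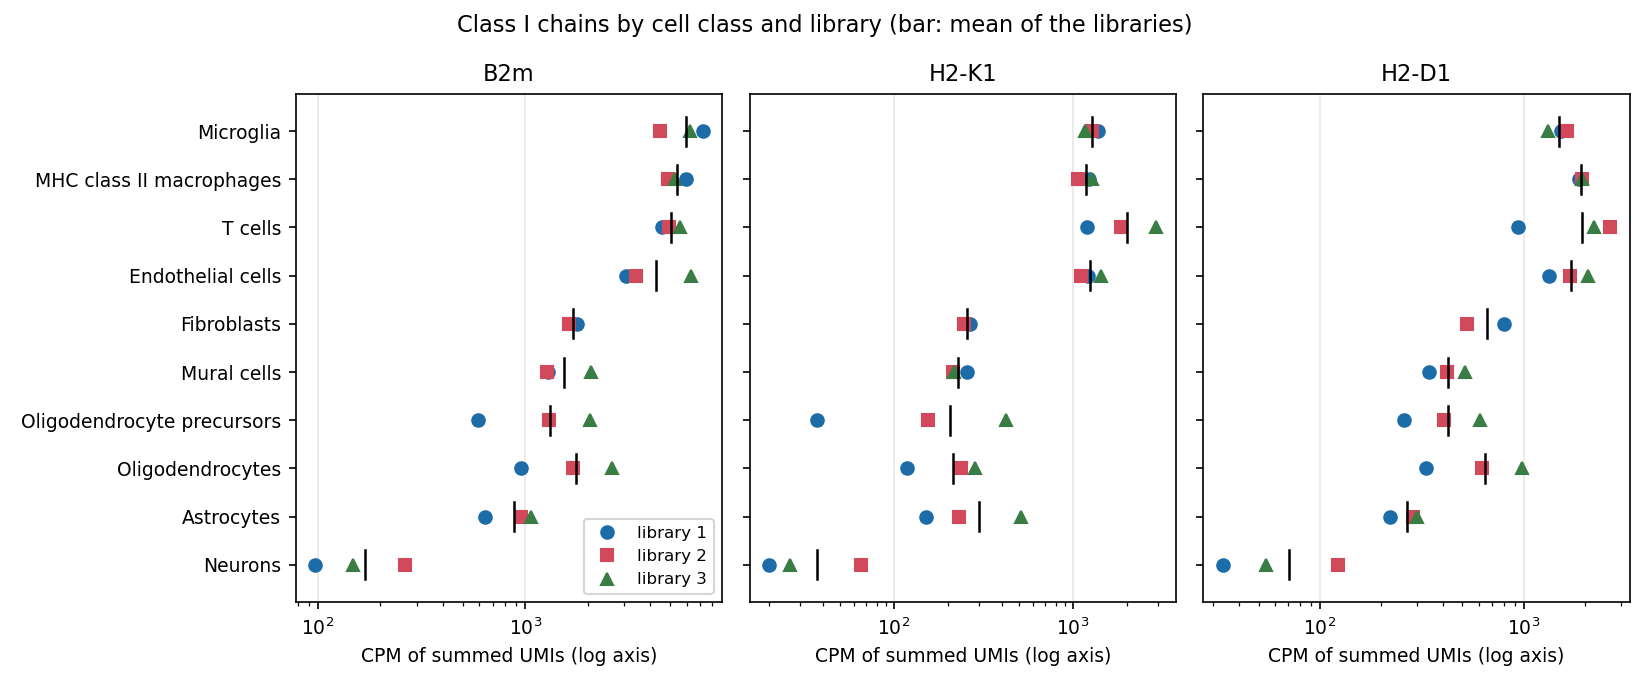
CPM of B2m, H2-K1 and H2-D1 (log axis) in each cell class, 1 symbol for each library and a bar at the mean of the libraries. Neurons sit at the low end in all 3 panels (B2m 96.7 to 263 CPM), and microglia, macrophages, T cells and endothelial cells at the high end (B2m at least 3046 CPM).

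Both heavy chains had the same 4 classes at the top and neurons at the bottom by mean, although oligodendrocyte precursors of library 1, at 37.0 CPM of H2-K1, fell within the neuron range. H2-K1 was at 20.01, 65.3 and 26.4 CPM in neurons and at 1203, 1861 and 2932 CPM in T cells, its highest class by mean. H2-D1 was at 33.3, 123.0 and 54.3 CPM in neurons and at 940, 2658 and 2199 CPM in T cells. The 4 B2m-rich classes had at least 940 CPM of H2-D1 and 1069 CPM of H2-K1 in every library, and the highest value of any other class was 984 CPM (H2-D1 in oligodendrocytes of library 3). T cells were few (25, 51 and 12 cells), and their H2-D1 range covered those of macrophages and endothelial cells. Between the other classes the chains divided differently: H2-K1 made up 49.5% ± 12.1 of H2-K1 plus H2-D1 UMIs in astrocytes (SD, n = 3 libraries) and 25.4% ± 2.61 in oligodendrocytes, with ranges of 40.8% to 63.3% and 22.5% to 27.4%. Both heavy chains together, set against B2m, ranged from 0.439 ± 0.075 in mural cells to 0.768 ± 0.257 in T cells (SD, n = 3). That ratio compares classes, not the amounts of the transcripts.

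The peptide pump and its partner were sparse in every class. Tap1 was at 5.56, 12.6 and 3.44 CPM in neurons and at 96.6, 100 and 116 CPM in macrophages, the class with its highest mean. Tap2 was at 5.56, 3.23 and 2.30 CPM in neurons, at 51.5, 71.7 and 116 CPM in macrophages and at 62.3, 66.1 and 63.0 CPM in astrocytes. Astrocytes therefore ranked 4th in Tap2, where for B2m they ranked 9th of 10 classes, and astrocytes held 38.3% of the Tap2 UMIs of gated cells on average but 10.1% of those of B2m. They were 11.1%, 7.21% and 9.13% of all kept cells, which include cells left out of the classes. That is a share of cells and not of UMIs, so it is no baseline for the 38.3%. The Tap2 ranges of macrophages, endothelial cells (54.3 to 94.6 CPM) and mural cells (42.2 to 85.5 CPM) covered that of astrocytes. Tapbp was at 34.5, 47.6 and 30.2 CPM in neurons. Its highest mean was in fibroblasts, at 354 and 462 CPM, whose range lay above that of macrophages (206 to 265 CPM). T cells in library 1 and oligodendrocyte precursors in libraries 1 and 3 held no Tap1 UMI, but with 25, 26 and 33 cells these zeros set only weak limits.

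Among the inducible proteasome subunits, Psmb8 and Psmb9 were led by macrophages and Psmb10 differed least between classes. Psmb8 was at 6.67, 28.4 and 6.50 CPM in neurons and at 644, 703 and 1019 CPM in macrophages. Psmb9 was at 5.56, 16.3 and 2.30 CPM in neurons and at 200, 305 and 439 CPM in macrophages. Psmb10 was at 43.3, 57.9 and 38.6 CPM in neurons and at 150, 299 and 338 CPM in T cells, its highest class. Each inducible subunit was then set against the constitutive one whose place it takes, as a percent of the UMIs of the pair. Psmb8 was 81.3% ± 3.65 of Psmb8 plus Psmb5 in microglia, 84.1% ± 6.25 in macrophages, 65.6% ± 11.3 in endothelial cells, 43.0% ± 14.2 in astrocytes and 5.39% ± 3.78 in neurons (SD, n = 3). Psmb9 was 51.5% ± 16.8 of its pair with Psmb6 in macrophages, 9.06% ± 5.06 in oligodendrocytes and 2.21% ± 1.62 in neurons. Psmb10 was 23.4% ± 1.03 of its pair with Psmb7 in neurons. Neurons were the lowest class for all 3 shares by mean. The shares of Psmb8 in neurons (2.90% to 9.75%) lay below those of every other class in every library, while for Psmb10 oligodendrocytes (19.6% to 43.6%) and mural cells (0% to 52.0%) overlapped neurons.

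**Figure D2:**
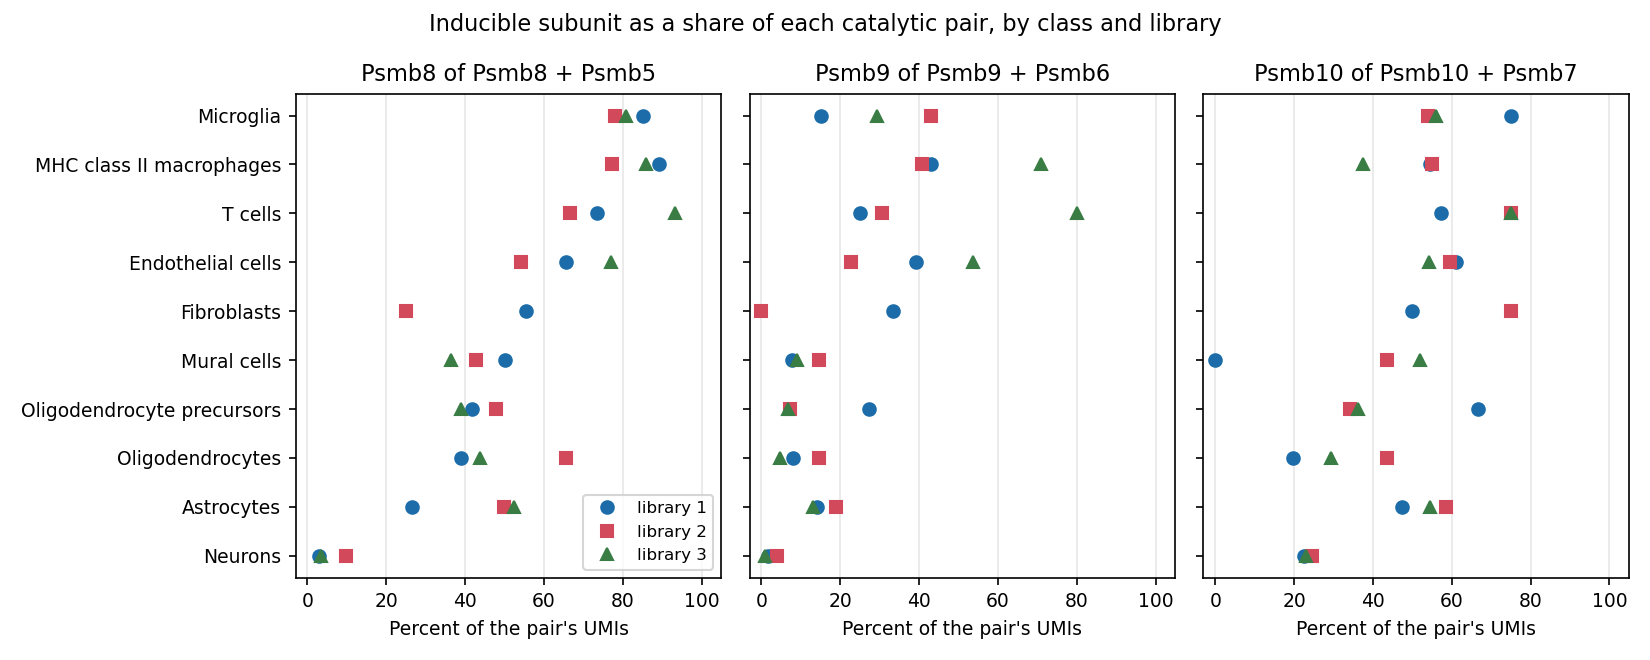
UMIs of Psmb8, Psmb9 and Psmb10 as a percent of each catalytic pair (with Psmb5, Psmb6 and Psmb7), by class, 1 symbol for each library. Neurons are lowest by mean for Psmb8 and Psmb9, and macrophages and microglia reach 77.2% or more for Psmb8; single points of small classes, such as mural cells in library 1 at 0% for Psmb10, rest on few UMIs.

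Nlrc5 was close to the limit of detection throughout. It had 0, 28 and 1 UMIs in neurons of libraries 1 to 3, which is 0, 3.35 and 0.383 CPM, and the count of 0 in library 1 allows up to 3.33 CPM. It reached 35.8, 55.3 and 18.2 CPM in microglia and 25.8, 53.8 and 12.9 CPM in macrophages. Its highest single value, 282 CPM in T cells of library 3, rested on 5 UMIs. Nlrc5 did not pass the count filter of the fit that follows and was not tested there.

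Differences between classes were tested on the summed counts with edgeR's quasi-likelihood test, library as block, with Benjamini-Hochberg adjustment over all 7675 genes tested. A gene was called at an adjusted p under 0.05. Of the 9 members tested, 9 were higher than in neurons in astrocytes (28.4% of all genes tested were), 9 in oligodendrocytes (28.4%), 9 in microglia (21.2%), 9 in MHC class II macrophages (22%) and 9 in endothelial cells (25.8%). Mural cells had 8 (21.3%), T cells 8 (10.6%), oligodendrocyte precursors 7 (13.1%) and fibroblasts 6 (7.58%). In no class was a member called lower, where 14.9% (fibroblasts) to 28.8% (oligodendrocytes) of all genes were. Together 74 of 81 pairs of a class and a member were called, and no member had a fitted value below that of neurons. The 7 pairs not called were Tap1 in oligodendrocyte precursors, mural cells, T cells and fibroblasts, Tap2 and Psmb9 in fibroblasts, and Tapbp in oligodendrocyte precursors. The median log2 fold change of the members was 3.01 in astrocytes, 2.92 in oligodendrocytes, 4.31 in microglia, 5.32 in macrophages and 4.62 in endothelial cells. The medians over all genes were -0.02, 0.03, -0.31, -0.32 and -0.08 in the same classes.

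**Figure D3:**
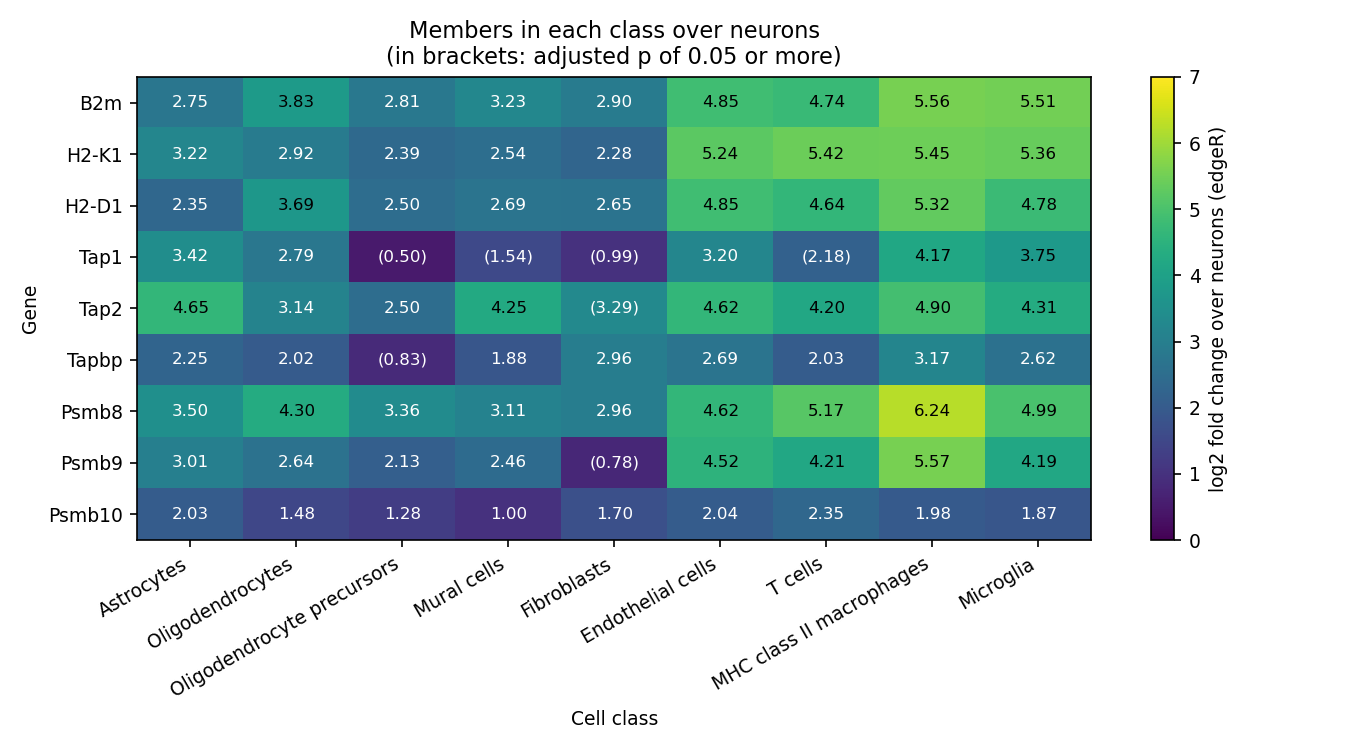
Fitted log2 fold change of 9 members (rows) in 9 classes (columns) over neurons, from edgeR on sums per library; brackets mark an adjusted p of 0.05 or more. The largest value is Psmb8 in macrophages (6.24), and the row of Psmb10 runs from 1.004 to 2.35.

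Among the called differences the size varied widely by gene. B2m in microglia was 5.51 ± 0.43 above neurons on the log2 scale (SE, edgeR adjusted p 2.6e-13), and in astrocytes 2.75 ± 0.38 (adjusted p 9.6e-08). Psmb8 in macrophages was 6.24 ± 0.45 above neurons (adjusted p 1.9e-14). Tap2 in astrocytes, at 4.65 ± 0.39 (adjusted p 2.4e-18), was the largest difference of that class. Psmb10 stayed between 1.004 ± 0.381 in mural cells and 2.35 ± 0.43 in T cells. As each fold is against the same neurons, the classes share that reference.

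Pathway genes outside the members, from lists of known roles, moved with them to unequal degrees. The proteasome activator genes Psme1 and Psme2 were both called higher in 7 of the 9 classes, with Psme medians of 3.93 in macrophages and 1.42 in astrocytes on the log2 scale. Of 6 other class I chains tested, all were higher in microglia, macrophages, T cells and endothelial cells, and 5 in astrocytes. The constitutive subunits Psmb5, Psmb6 and Psmb7 gave 0 calls of 3 in 7 classes; 2 were higher in oligodendrocytes and 1 was lower in microglia. Chaperones and peptide trimming genes of the endoplasmic reticulum gave at most 2 of 3 calls in a class. Of 22 interferon-stimulated genes (Isg15 and Ifit1 not among them), 22 were higher in astrocytes and in endothelial cells and 12 in T cells.

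UMIs of these genes in neurons have to be read beside free RNA, which droplets take up from broken cells. Genes that no gate used and that belong to other cells served as a reference: C1qa, Lyz2 and Apoe (phagocytes, the last also astrocytes), Itm2a (vessels) and Hbb-bs (red cells). Their level in neurons, as a percent of the level in their own highest class, was 0.44% to 1.80% in library 1, 0.952% to 4.72% in library 2 and 0.203% to 1.999% in library 3, where a value could be formed. On that scale B2m in neurons was at 1.35%, 5.88% and 2.37% of its level in microglia. H2-K1 (1.66%, 3.51% and 0.90%) and Psmb8 (1.04%, 4.04% and 0.64%) lay inside the range of the reference genes in all 3 libraries, and their UMIs in neurons are not read as expression. Below Apoe, the next reference gene was Lyz2 in library 2 (2.21%) and Itm2a in library 3 (0.593%). In libraries 2 and 3 Apoe alone thus set the top of the range, and H2-K1 and Psmb8 lay above every other reference gene. Tapbp, at 9.72% and 10.3% of fibroblasts, Psmb10, at 28.8%, 19.4% and 11.4% of T cells, and Tap1, at 5.75%, 12.5% and 2.97% of macrophages, were above that range wherever a value could be formed, Tap1 on 5 and 9 UMIs in neurons of libraries 1 and 3. H2-D1 and Psmb9 were above the range in 2 libraries and inside it in 1, as was B2m, and Tap2 was above it in library 1 only. The scale sets each gene against its highest class only, while the reference genes belong to few classes. Free RNA of a gene found in most classes comes from all of them, so a value above the range is not read as expression either.

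The share of cells with a UMI gave the same picture. B2m was seen in 9.76% of neurons in library 1 (95% Clopper-Pearson interval 7.73% to 12.1%), 37.9% in library 2 (36.2% to 39.6%) and 28.4% in library 3 (25.3% to 31.7%), at median depths of 1088, 2363 and 2426.5 UMIs. At an expected depth of 1000 UMIs, computed over the 421, 2879 and 722 neurons that reach it, the shares were 6.58%, 18.7% and 12.2%. Lyz2, a phagocyte gene, was at 5.39%, 11.6% and 0.966% of the same neurons at that depth, and Apoe at 43.0%, 68.6% and 26.5%. The excess of B2m over Lyz2 was thus small in library 1. In microglia B2m was seen in 95.2%, 98.7% and 96.8% of cells at 1000 UMIs, in endothelial cells in 91.6%, 89.4% and 98.2% and in astrocytes in 44.4%, 53.1% and 54.7%. Neurons with UMIs of at least 2 members made up 3.34%, 29.6% and 18.5% of neurons, against 95.1%, 87.9% and 92.2% of microglia. Intervals cover counting error only.

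Between D1 and D2 neurons 2 members were called, by less than 1 on the log2 scale, and the smaller neuron classes stood higher for single members. D1 neurons, gated on Drd1, Tac1, Pdyn, Isl1 and Eya1, and D2 neurons, gated on Drd2, Adora2a, Penk and Gpr6, are the output neurons of the striatum. B2m was at 64.6, 230 and 172 CPM in D1 neurons and at 123, 177 and 98.9 CPM in D2 neurons, so D1 was higher in 2 libraries and lower in library 1. Tapbp was at 28.2, 46.1 and 28.4 CPM in D1 neurons against 30.7, 26.6 and 17.3 CPM in D2 neurons. Psmb10 was at 12.1, 55.5 and 30.4 CPM against 7.66, 37.6 and 12.6 CPM, on 3 and 2 UMIs in library 1. Glutamatergic neurons, at 201, 97.3 and 69.1 CPM of Psmb10, were above both in every library. Sst-Npy interneurons had 891 and 221 CPM of B2m in libraries 2 and 3, from 34 and 10 cells. In the edgeR test of D1 over D2, 2 of 5 members tested were called higher (1.85% of 8683 genes were called higher and 1.74% lower): Tapbp by 0.69 ± 0.21 (log2, SE, adjusted p 0.0351) and Psmb10 by 0.64 ± 0.20 (adjusted p 0.0387). B2m missed the threshold (0.38 ± 0.12, adjusted p 0.064). Both calls were lost without library 2, without library 3, without the library block and with DESeq2, where 0 members were called. Cells with UMIs of Isg15 or Ifit1 were also more frequent among D1 neurons (1.46%, 20.9% and 14.7%) than among D2 neurons (0.926%, 13.1% and 3.76%), and In the same test 2 of 11 regulators were called higher, Irf9 among them (0.89 ± 0.21), and 0 of 6 interferon-stimulated genes, of which 4 had a positive value. The part of these cells in the result was not tested.

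Isg15 and Ifit1 are induced by type I interferon, and neurons with at least 1 UMI of either were compared with neurons with none. They numbered 12, 601 and 94 in libraries 1 to 3, and each was matched to a neuron of its library with the nearest number of UMIs. The median depths of the arms were 1096 and 1095.5, 3017 and 3018, and 3987.5 and 3985.5 UMIs. B2m was at 476 CPM in library 2 and 369 CPM in library 3 in neurons with these UMIs, against 203 and 83.3 CPM in those without, which is 2.35 and 4.42 times as high. In library 1 each arm held 2 B2m UMIs, in 13944 and 13939 UMIs in all, so no difference was detectable at this depth. At an expected 1000 UMIs B2m was seen in 26.8% against 15.8% of these neurons in library 2 and in 27.5% against 10.1% in library 3.

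The other members pointed the same way in the 2 larger libraries. All 10 were higher in neurons with Isg15 or Ifit1 UMIs in library 2, and 9 of 10 in library 3, where Psmb9 was lower on 2 and 3 UMIs. H2-D1 was at 196 against 116 CPM in library 2 and at 107 against 27.8 CPM in library 3. Tapbp was at 83.2 against 36.4 CPM and at 78.8 against 13.9 CPM. Psmb10 was at 96.1 against 43.9 CPM and at 83.4 against 39.4 CPM. H2-K1 differed less, at 90.1 against 73.4 CPM and at 32.4 against 13.9 CPM. Tap1 in library 2 was at 28.7 against 8.48 CPM, while in library 3 it had 3 UMIs and 1.

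The fit over all 3 libraries called 0 of 5 members tested (0.0294% of 6806 genes were called higher with edgeR, 2 genes). B2m was 1.52 ± 0.20 higher (log2, SE, adjusted p 0.0767), Tapbp 1.44 ± 0.27 (adjusted p 0.481), Psmb10 1.12 ± 0.22 (adjusted p 0.791), H2-D1 1.03 ± 0.25 and H2-K1 0.46 ± 0.26. With an unadjusted p under 0.05 there were 4 members and 184 genes in all, and DESeq2 also called 0 members. Oasl2, an interferon-stimulated gene, was among those called (2.25 ± 0.26, adjusted p 0.0477). With all 3 libraries, the package-default prior of edgeR called 4 of 5 members and unmatched comparison cells gave 6 of 8. The share of all genes called under these settings is not given here, so both counts describe the runs only. Leaving out library 2 or library 3 gave 0 members called, with B2m 1.85 ± 0.56 and 1.19 ± 0.20 higher (log2, SE). Without library 1, edgeR called 6 of 8 members higher (0.773% of 9959 genes). These were B2m (1.51 ± 0.13, adjusted p 5.3e-26), H2-D1 (0.99 ± 0.17, 3.2e-06), Tapbp (1.43 ± 0.23, 3.0e-07), Psmb10 (1.13 ± 0.21, 2.3e-05), Tap1 (1.75 ± 0.42, 0.00483) and Psmb9 (1.35 ± 0.38, 0.0316). H2-K1 and Psmb8 were not called there (0.41 ± 0.21 and 0.57 ± 0.32). That fit held only libraries 2 and 3, so its p-values lean on a spread estimated from all genes together. B2m was 2.35 and 4.42 times as high in these libraries, a gap that its SE of 0.13 does not reflect. B2m also passed when neurons were matched on neuron class (1.53 ± 0.13, edgeR adjusted p 0.00113) and when only neurons with no marker UMI of another class were used (1.33 ± 0.23, adjusted p 8.3e-06). Over all alternatives the adjusted p of B2m ranged from 5.3e-26 to 1.

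Traces of other cells in the matched neurons are given beside this. Markers of all other classes summed to 422 against 431 CPM in library 2 and 264 against 285 CPM in library 3, with and without Isg15 or Ifit1 UMIs. Microglia markers were at 19.3 against 19.96 CPM and 9.27 against 6.95 CPM. The neuron gate allowed fewer than 2 markers of any other class, so these marker sums were held low in both arms by the gate. Of the free RNA reference genes, Lyz2 was at 496 against 202 CPM and Apoe at 2205 against 1414 CPM in library 2, and at 9.27 against 9.26 CPM (4 UMIs in each arm) and 285 against 257 CPM in library 3. C1qa was at 185 against 105.3 CPM in library 2 and at 23.2 against 20.8 CPM, on 10 and 9 UMIs, in library 3. The part of free RNA in the B2m difference was not tested. D2 neurons were fewer in the arm with Isg15 or Ifit1 UMIs, at 14.98% against 27.1% and 8.51% against 35.1%.

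Neurons of libraries 2 and 3 were also grouped by how many Isg15 and Ifit1 UMIs they held. For 0, 1, 2 to 4 and 5 or more, B2m was at 195, 337, 499 and 900 CPM in library 2 (2522, 336, 190 and 75 cells). In library 3 it was at 104, 264, 407 and 695 CPM (704, 52, 33 and 9 cells). B2m thus rose at every step in both libraries, as did H2-D1, Tapbp and Psmb10. In library 2, 8 of 10 members rose at every step, the exceptions being Tap2 and Nlrc5. In library 3 it was 4 of 10, and H2-K1, Tap2 and Nlrc5 had 0 UMIs in the 9 cells of the top group. Cells in higher groups were deeper (medians of 2194 and 3786 UMIs in the lowest and highest group of library 2), and at an expected 1000 UMIs B2m was seen in 16.6%, 19.9%, 32.0% and 43.4% of library 2 neurons. The groups are ranges of a count and were described without a test.

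**Figure D4:**
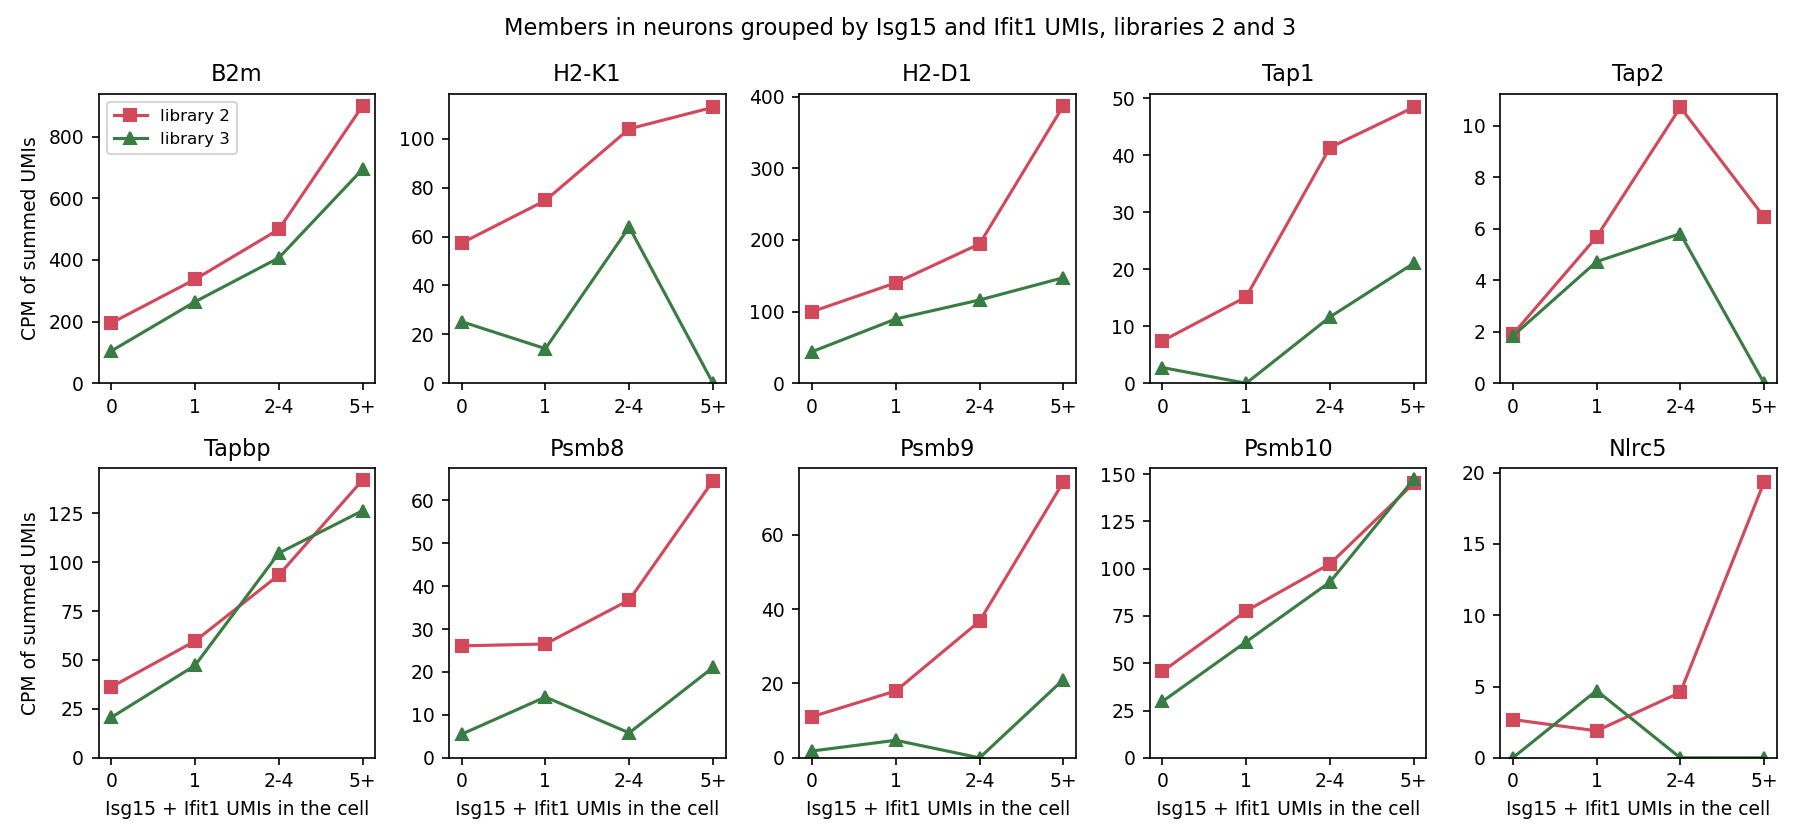
CPM of each member in neurons of libraries 2 and 3, grouped by the number of Isg15 plus Ifit1 UMIs in the cell (x axis); each panel has its own y axis from 0. B2m climbs from 195 to 900 CPM in library 2 and from 104 to 695 CPM in library 3; the lower panels of library 3 rest on a few UMIs.

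The same comparison was made in astrocytes, oligodendrocytes, microglia and endothelial cells. In oligodendrocytes 8 of 9 members tested were called higher in cells with Isg15 or Ifit1 UMIs (0.905% of 4531 genes were, and 0.0221% lower, edgeR), and Tap1 was not (1.76 ± 0.38, adjusted p 0.053). Psmb8 was at 465, 708 and 377 CPM with these UMIs and at 103.5, 204 and 62.9 CPM without, a log2 difference of 2.07 ± 0.17 (adjusted p 6.2e-05). B2m was at 1706, 2695 and 4117 CPM against 1087, 1288 and 1901 CPM (1.07 ± 0.11, adjusted p 0.000234). Tap2 had the largest fitted value (2.52 ± 0.50, adjusted p 0.0297), on 2, 25 and 16 UMIs against 0, 5 and 2. All 10 members were higher in all 3 libraries. The arms held 28, 157 and 84 cells each.

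In astrocytes 5 of 9 members tested were called higher (0.729% of 4803 genes were called higher and 0.0416% lower): Psmb8 (1.36 ± 0.22, edgeR adjusted p 0.000665), H2-K1 (1.17 ± 0.19, 0.000665), Psmb10 (1.10 ± 0.23, 0.0115), H2-D1 (1.08 ± 0.17, 0.000565) and B2m (0.72 ± 0.14, 0.00674). B2m was at 764, 1148 and 1324 CPM with Isg15 or Ifit1 UMIs and at 650, 748 and 686 CPM without. In library 1, 8 of 10 members were higher with these UMIs, and the other two were not: H2-K1 was at 138 against 149 CPM and Psmb8 at 53.1 against 53.3 CPM. The arms of library 3 were not of like depth (medians of 4225 and 2677 UMIs), and with pairs kept within 10% of each other's UMIs, 6 members were called. In both glial classes the calls rested on libraries 2 and 3. DESeq2 called 4 members in oligodendrocytes and 2 in astrocytes, and a fit without the library block called 0 in both. Without library 3, 0 members were called in either class, and without library 2, 0 in oligodendrocytes and 2 in astrocytes. Shares of all genes called in these alternative runs are not given here.

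Genes of the pathway outside the members were called in the same cells. In oligodendrocytes with Isg15 or Ifit1 UMIs, the class I chains H2-T23 (2.27 ± 0.22, adjusted p 0.0002) and H2-T22 (2.15 ± 0.23, adjusted p 0.0003), 2 of 2 tested, were higher by edgeR. So were Psme2 (1.09 ± 0.18, adjusted p 0.0128), of the proteasome activator, and, among the regulators, Irf7 (2.99 ± 0.23) and Irf1 (1.61 ± 0.32). The constitutive proteasome subunits gave 0 of 3 calls in oligodendrocytes and 0 of 3 in astrocytes. Of 17 interferon-stimulated genes tested besides the 2 that define the groups, 13 were higher in oligodendrocytes, led by Ifit3b (3.82 ± 0.31), and 14 in astrocytes, led by Gbp2 (2.53 ± 0.26). Irf7 (2.79 ± 0.37) and Irf9 (1.69 ± 0.38) were the regulators called in astrocytes.

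In microglia and endothelial cells no member was called. Microglia had 0 of 3 members tested (0.397% of 252 genes, edgeR), with arms of 10, 46 and 12 cells, 0 members also by DESeq2 and 0 at an unadjusted p under 0.05. B2m was at 7778, 4880 and 8081 CPM against 7690, 4727 and 4919 CPM, a difference of 0.25 ± 0.24. Endothelial cells, with matched arms of 58, 64 and 16 cells (of 58, 146 and 68 with these UMIs), had 0 of 7 (0.0755% of 1325 genes were called higher and 0.302% lower), 0 by DESeq2 too, and 1 member, Psmb8, at an unadjusted p under 0.05 (0.97 ± 0.33, adjusted p 0.239). Their B2m was at 2814, 3225 and 8241 CPM against 3344, 2527 and 4870 CPM (0.16 ± 0.14). Whether the difference in each class departs from that in neurons was tested as an interaction over all genes. No member passed in astrocytes (0.0502% of 7965 genes were called in either direction), oligodendrocytes (0.0506% of 7898), microglia (0% of 950) or endothelial cells (0.0761% of 2629). For B2m the interaction was -1.22 ± 0.27 in endothelial cells (edgeR adjusted p 0.128) and -1.20 ± 0.34 in microglia (adjusted p 0.447), and neither was called. With an unadjusted p under 0.05 there were 3, 3, 1 and 3 members in these classes.

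**Figure D5:**
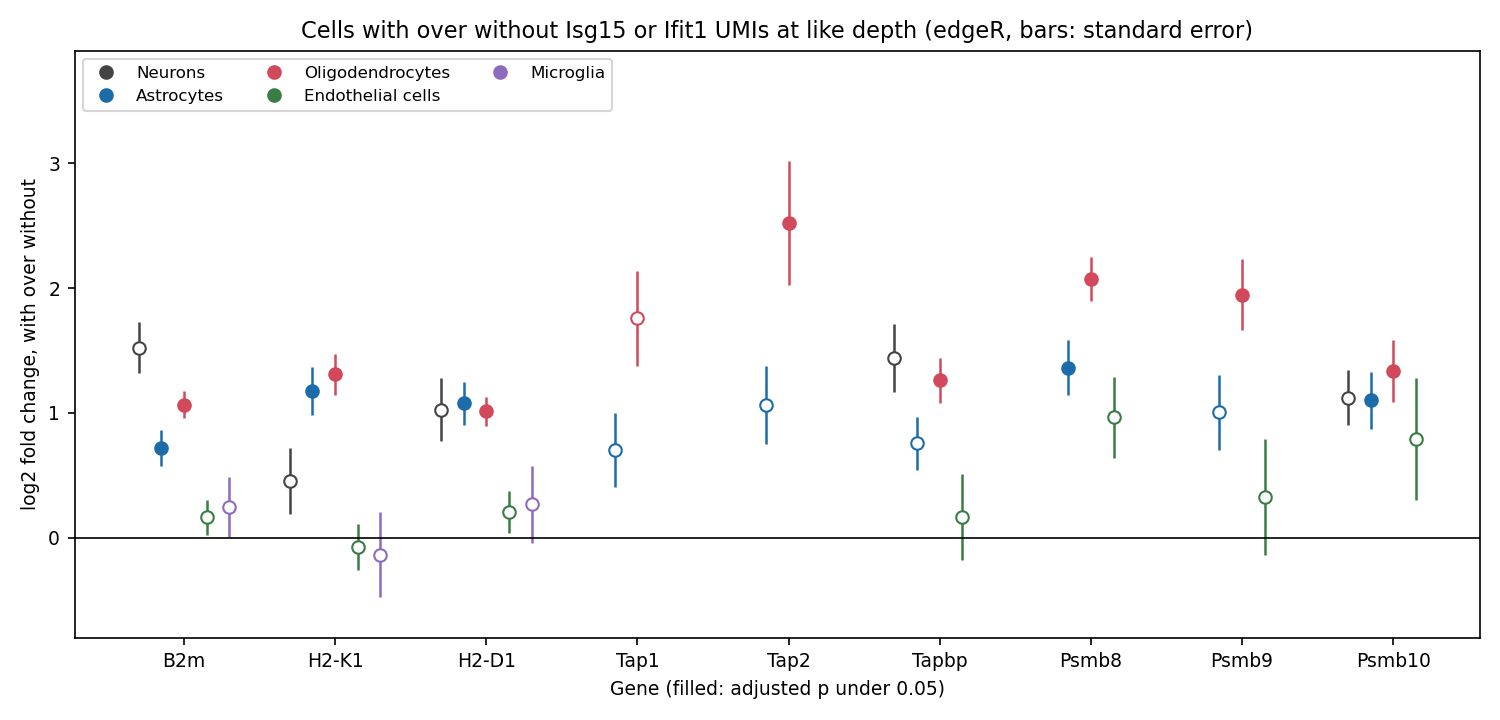
Log2 fold change of each member in cells with over cells without Isg15 or Ifit1 UMIs, with SE bars, in 5 classes; filled points have an edgeR adjusted p under 0.05. Oligodendrocyte points lie between 1.01 and 2.52, and B2m of microglia and endothelial cells near 0.

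Interferon-positive cells themselves were spread unevenly. They made up 1.60%, 19.2% and 11.8% of neurons and 36.9%, 69.5% and 81.0% of endothelial cells in libraries 1 to 3. Library 1 was the lowest in both.

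No member was called between neurons with and without UMIs of the FLiCRE constructs. The matched neurons with a UMI of TEV or tTA (213, 1430 and 336 per library) had B2m at 83.9, 250 and 132 CPM, against 68.7, 285 and 146 CPM in as many neurons with no UMI of mCherry, TEV or tTA. H2-D1 was at 30.2, 121 and 50.4 CPM against 44.6, 123 and 60.2 CPM. Of 6 members tested 0 were called by edgeR or DESeq2 (0% of 9135 genes were called higher and 0.0766% lower), and 0 had an unadjusted p under 0.05. The fitted differences ran from -0.31 (Psmb10, SE 0.21) to 0.24 (Tapbp, SE 0.21). In libraries 2 and 3 the neurons with construct UMIs outnumbered those without any, and the ones left with no partner were dropped. Matching was poorer here, with median depths of 2817 against 1920.5 UMIs in library 2. Neurons with an mCherry UMI (44, 585 and 82) against matched neurons with none gave 0 of 5 members called by edgeR or DESeq2 (0.0148% of 6754 genes were called higher and 0.0296% lower) and 0 with an unadjusted p under 0.05. Their B2m was at 80.1, 288 and 200 CPM against 121, 320 and 124 CPM, a fitted difference of 0.05 ± 0.16.

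Across the 29 sums of a class in a library the members varied together to unequal degrees. The Pearson correlation of log2(CPM + 10) was highest for B2m with H2-D1 (0.97) and lowest for Tap2 with Psmb10 (0.27). The 5 genes outside the list most like B2m over these sums were Arpc1b (0.92), Bst2 (0.87), Rps9 (0.87), Rps4x (0.85) and Rplp0 (0.84), out of 7666. Those most like the mean of the members were Arpc1b (0.87), Zbp1 (0.87), Bst2 (0.86), Trim30a (0.83) and Msn (0.83). These sums share libraries and classes and are not independent, so the values describe a pattern only.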

How the data were processed

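UMI counts per gene and cell were deposited by the authors as 1 matrix that pools 3 libraries, made with Cell Ranger 3.0.0 per the file headers, from 10x 3′ v2 libraries per the labels' protocols and on mm10 per the submitters' processing notes. Whether libraries were brought to equal depth when pooled, and whether counting used strand, is not given in the sources used here. The barcode suffix names the library, and nothing ties it to a numbered sample. Libraries are labelled as replicates, and whether each is a separate animal is not stated. Cells needed 300 genes and at most 20% mitochondrial UMIs. The kept libraries held 2868822, 15625072 and 6440580 UMIs, no doublet caller was run, and cells with markers of more than 1 class were left out. Of the marker list, 3 symbols are not features.

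UMIs were summed per library and class or arm (at least 10 cells) and given as CPM, with the share of cells with a UMI (Clopper-Pearson, 95%; a count of 0 is set against 3 counts) and its expected value at 1000 UMIs per cell. Sums were tested with edgeR 4.0.16 in R 4.3.3 (quasi-likelihood, TMM, filterByExpr, library as block, Benjamini-Hochberg over all genes at 0.05), with DESeq2 1.42.0 as an alternative. The block is the library, as both sums of a pair come from the same one. On simulated data for the neurons with interferon UMIs, 35 of 99 genes changed 2-fold and 99 of 99 changed 4-fold were recovered, with 0 of 6596 unchanged genes called. For the class comparison it was 75 of 100, 100 of 100 and 11 of 9737. The members and the gene lists were chosen with earlier results of these data known. Genes outside the members were named as the 5 list genes with the largest called change, or the 5 most correlated. Matching within 10% of UMIs was added after the data were seen. Some genes of the lists are not reported here.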

Additional observations from a re-analysis of the deposited data

How the results depend on the processing

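The pairs of member and class called over neurons numbered 74 of 81 and stayed between 68 and 76 in every alternative run, with 72 when the library block was left out. The 0 calls for neurons with construct or mCherry UMIs stayed at 0 in every alternative, the block included. For D1 over D2 neurons, 2 members were called; DESeq2, no low-count filter, no library block and 1 more marker in every gate each gave 0, cells with at least 1000 UMIs gave 1, and leaving out a library gave 0 to 3. For neurons with Isg15 or Ifit1 UMIs, 0 were called and 0 without the block; the package-default prior, at least 2 UMIs and Ifit1 alone each gave 4, cells with at least 1000 UMIs and 1 more marker in every gate 5, unmatched comparison cells 6, matching on neuron class 1, no marker UMI of other classes 1, and leaving out a library 0 to 6. In the other 4 classes 13 of 28 were called; DESeq2 gave 6, no low-count filter 1, no library block 0, and leaving out a library 0 to 15. For the interaction 0 were called; DESeq2 size factors gave 1, the package-default prior 2, unmatched cells 1, no block 0, and leaving out a library 0 to 1. The cause of these moves was not tested. For most of these runs the share of all genes called is not given, so the counts of members describe the runs only. A sum needed 10 cells. Of the library 1 neurons with Isg15 or Ifit1 UMIs, 9 had at least 1000 UMIs in all, and 1 had 2 or more UMIs of these genes. For neurons, the runs with at least 1000 UMIs and with at least 2 UMIs therefore rested on libraries 2 and 3 alone, like the run without library 1. Of 1733 single log2 fold changes under an alternative, for 1579 the call did not change, 47 were called newly and 107 were no longer called. Of the values called in either run, 0 changed sign. A value called in neither run could change sign and still count among the 1579. Of 280 CPM values 23 moved by more than the spread between libraries, 14 of them with 1 more marker. Of 280 shares of cells, 81 moved with thinning to 500 UMIs and 31 with 1 more marker. Library 1 had a median of 992.5 UMIs and 12 neurons with Isg15 or Ifit1 UMIs.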

Other observations

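Receptors that bind class I molecules were called higher than in neurons, by edgeR over 7675 genes, in T cells (6 of 7 tested, where 10.6% of all genes were), MHC class II macrophages (5 of 7, 22%), microglia (3 of 7, 21.2%) and mural cells (1 of 7, 21.3%), and 0 of 7 were called in the other 5 classes. Interferon receptor and kinase genes gave 5 of 6 in macrophages, 4 of 6 in microglia, 3 of 6 in T cells and endothelial cells, 2 of 6 in astrocytes, oligodendrocytes and mural cells, and 0 of 6 in the others, with 1 lower in oligodendrocytes. In astrocytes and oligodendrocytes 2 of 6 is near the share of all genes called higher (28.4% in each). Regulators of the pathway gave 8 of 10 in macrophages, 7 of 10 in endothelial cells (25.8% of all genes), 6 of 10 in microglia, astrocytes (28.4%) and oligodendrocytes (28.4%), 5 of 10 in T cells and mural cells, 2 of 10 in oligodendrocyte precursors (13.1%) and 1 of 10 in fibroblasts (7.58%), with 1 lower in microglia and 1 in astrocytes.

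Cells with UMIs of 4 or more members made up 50.4%, 59.1% and 63.3% of macrophages in libraries 1 to 3, 31.8%, 48.1% and 82.1% of endothelial cells, and 0.134%, 4.10% and 1.25% of neurons. These shares are not corrected for depth.

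Neurons with both Isg15 or Ifit1 UMIs and TEV or tTA UMIs had 400 CPM of B2m in library 2 and 341 CPM in library 3. Those with Isg15 or Ifit1 UMIs alone had 622 and 444 CPM. Without Isg15 or Ifit1 UMIs, B2m was at 184 and 104 CPM with the constructs and at 207 and 106 CPM without them. These 4 groups were not matched on depth and not tested.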
